A study of Mus musculus with 12 samples.

Results

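Type I interferons switch on a large set of genes whose products block viruses, and 38 such effector genes are described here across cultured mouse astrocytes. The genes were chosen by symbol from the 54532 rows of the gene table, without the interferon regulatory factors (IRFs), STATs, guanylate-binding proteins, nucleic acid sensors and MHC genes, and each of the 38 symbols matched 1 row. Astrocytes, which nourish neurons and shape their surroundings, had been cultured from the cortex and hippocampus of C57BL/6 adults, and 6 groups had 2 libraries each. The Ogt cKO group carried Glast-CreERT2 and floxed Ogt (Ogtfloxp/Y) at 4 months of age, and its cKO control bears the same genotype label at the same age. The Glast promoter drives the Cre in astrocytes, and the enzyme works only after tamoxifen, a treatment the labels do not describe. Ogt, on the X chromosome, encodes the enzyme that puts the sugar O-GlcNAc on proteins. The AD model group came from 5X APP mice, a transgenic model of Alzheimer's disease, and the AD control from wild-type mice, both 6 months old in the sample labels (5 months in the series description). The Aβ-treated group was wild-type astrocytes of 2-month-old mice kept with 20 µM amyloid-beta 1-42 (Aβ) for 72 hours in 1 library and 73 hours in the other, per the labels. The Aβ control group was the same kind of culture left untreated. Nothing in the labels tells whether both libraries of a group are different animals or repeats of 1 culture. Each p-value thus measures only the spread between libraries, which may be technical and was pooled over all 6 groups.

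Interferon alpha and beta bind a shared receptor pair, whose kinases activate transcription factors by phosphorylation. These enter the nucleus with IRF9 and bind a short promoter motif, the interferon-stimulated response element. The genes behind that motif encode RNA-binding proteins, nucleases, membrane factors and protein modifiers, most of them at low levels in resting cells. Astrocytes and microglia both carry the receptor, and interferon-stimulated genes are known to rise in glia of amyloid mouse models.

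Promoter sequences were read from RefSeq (GRCm38.p6), in windows from 250 bases before to 50 bases after each annotated start, and 29 of the 38 genes had a window. The response element was searched as GAAANNGAAA on both strands (TTTCNNTTTC on the other). It occurred in the windows of 12 of these 29 genes (41.4%), against 1079 of 27025 genes with a window (3.99%). The motif bound by STAT dimers, TTCNNNGAA, which reads the same on both strands, occurred in 6 of 29 (20.7%), against 2582 of 27025 (9.55%). Such a match is a description of the letters and not a measured binding site. The stretches below are a selection of those that carry the response element wholly before a RefSeq start of genes described further on. They run 5′ to 3′ on the gene's own strand, with the matches in capitals.

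Isg15, chr4:156200840-156200931, minus strand: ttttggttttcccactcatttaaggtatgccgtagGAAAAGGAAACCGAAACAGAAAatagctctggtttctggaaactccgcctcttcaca
Oas3, chr5:120777690-120777769, minus strand: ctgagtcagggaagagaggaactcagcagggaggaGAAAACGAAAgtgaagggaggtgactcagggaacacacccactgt
Bst2, chr8:71537552-71537637, minus strand: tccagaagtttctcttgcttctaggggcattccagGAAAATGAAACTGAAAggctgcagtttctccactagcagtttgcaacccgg
Slfn5, chr11:82951912-82951991, plus strand: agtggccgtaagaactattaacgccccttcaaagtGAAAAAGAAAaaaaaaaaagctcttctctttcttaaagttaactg
Rsad2, chr12:26456528-26456607, minus strand: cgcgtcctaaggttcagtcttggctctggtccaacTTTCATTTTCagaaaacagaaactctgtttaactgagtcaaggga
Ifit3, chr19:34583338-34583451, plus strand: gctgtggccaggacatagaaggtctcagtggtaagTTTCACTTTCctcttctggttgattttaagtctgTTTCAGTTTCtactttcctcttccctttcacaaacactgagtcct
Ifit1, chr19:34640750-34640848, plus strand: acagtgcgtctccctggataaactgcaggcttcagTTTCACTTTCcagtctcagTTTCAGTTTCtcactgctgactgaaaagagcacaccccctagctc

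In Isg15 the 3 matches overlapped one another within a single run, and in Bst2 the 2 matches shared their middle block. The Ifit3 stretch stands letter for letter also before Ifit3b (chr19:34607734-34607847, plus strand), a near copy of Ifit3. The Slfn5 stretch lies before a start that is inside the deposited span of the gene (chr11:82951349-82964840), downstream of its first base. Oas1a and Slfn8, not shown, also held matches wholly before a start, as did Trim30a before its upstream start. The matches of Ifitm3 lay after its start. The 12 genes with a match had a median log2 change of 4.50 in the AD comparison and 4.54 in the Aβ comparison. The 17 genes with a window but no match had medians of 3.07 and 3.25 in these comparisons. Both sets include genes that reached the level for testing only through the AD model and Aβ-treated libraries (Oas3 and Slfn8 among those with a match), so their medians are a description.

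**Figure D1:**
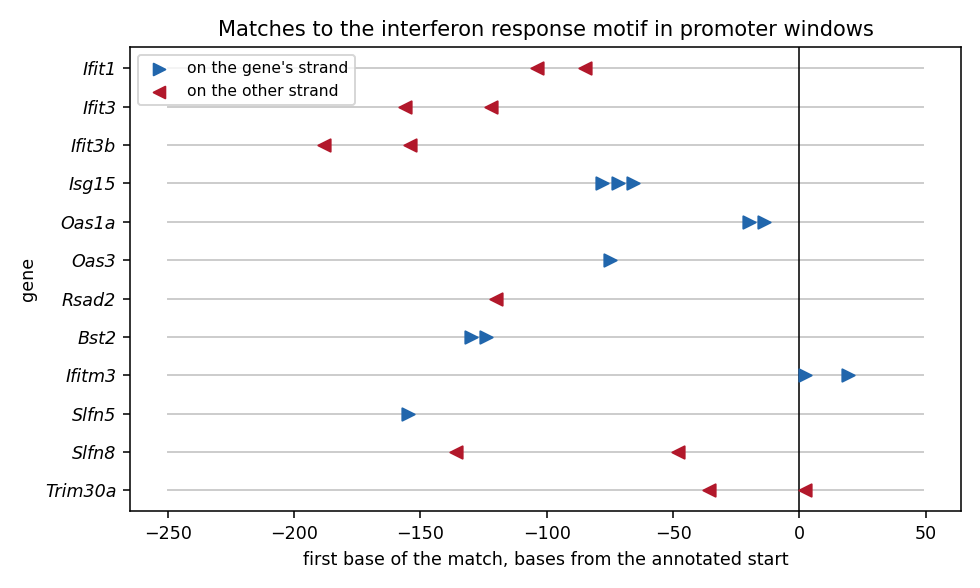
Positions of GAAANNGAAA in the promoter windows of the 12 genes that hold it, in bases from the annotated start (vertical line), with the strand of each match as the direction of the triangle. Slfn8 and Trim30a have more than 1 annotated start, so their marks belong to different starts. The marks of Slfn8 are the same site measured from different starts. Matches before the start lie within 250 bases of it, and those of Ifit1, Ifit3, Ifit3b, Rsad2, Slfn8 and Trim30a stand on the other strand.

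Levels are FPKM, read counts that the authors scaled to gene length and library size, and log2 changes are on log2(FPKM + 1), which understates the change of genes with low levels. The AD model and Aβ-treated libraries held high levels of nearly the whole set, and the other 8 libraries held low levels. The median over the 38 genes was 37.6 and 45.2 FPKM in the AD model libraries, against 2.54 and 1.58 in the AD control libraries. It was 40.7 and 36.6 FPKM in the Aβ-treated libraries, against 1.08 and 1.45 in the Aβ control libraries. In the Ogt cKO libraries it was 2.61 and 2.95 FPKM, against 2.74 and 1.95 in the cKO control libraries. By this median the AD model and Aβ-treated libraries lay apart from all others, while the Ogt cKO libraries lay close to the controls. The 38 genes took 0.868% and 1.06% of all reads in the AD model libraries, against 0.0883% and 0.0739% in the AD control. Their share was 0.824% and 0.758% in the Aβ-treated libraries, against 0.0836% and 0.0780% in the Aβ control. All 38 genes reached 1 FPKM in each AD model and Aβ-treated library, against 26 or 27 genes in the AD control libraries and 20 or 21 in the Aβ control libraries.

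The libraries held 16418852 to 18705309 reads assigned to genes, and 3 reads on a gene of 1 kilobase corresponded to 0.145 to 0.191 FPKM, which reflects the error of counting alone. Replicates correlated across genes at r = 0.944 in the AD model and 0.948 in the AD control, and at 0.985 to 0.991 in the other 4 groups. Ogt itself was at 11.04 and 12.03 FPKM in the Ogt cKO libraries, against 20.8 and 24.6 in the cKO control libraries (log2 change -0.92 ± 0.30, limma adjusted p = 0.0378). The call of Ogt was lost without any 1 of the 4 libraries (adjusted p = 0.0849 to 0.172). The deposited value covers the whole gene and does not resolve the floxed part. Astrocyte markers were measured in all groups, with Gjb6 listed at 0 in the AD model and Aβ control groups, beside high levels of microglia and macrophage markers in each group. The summed level of the fibroblast markers also lay above that of the astrocyte markers in each group. The sum of pericyte and smooth muscle markers did so in the Ogt cKO, AD control, Aβ-treated and Aβ control groups. In such bulk RNA, fewer cells of a type and less RNA per cell cannot be told apart.

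**Figure D2:**
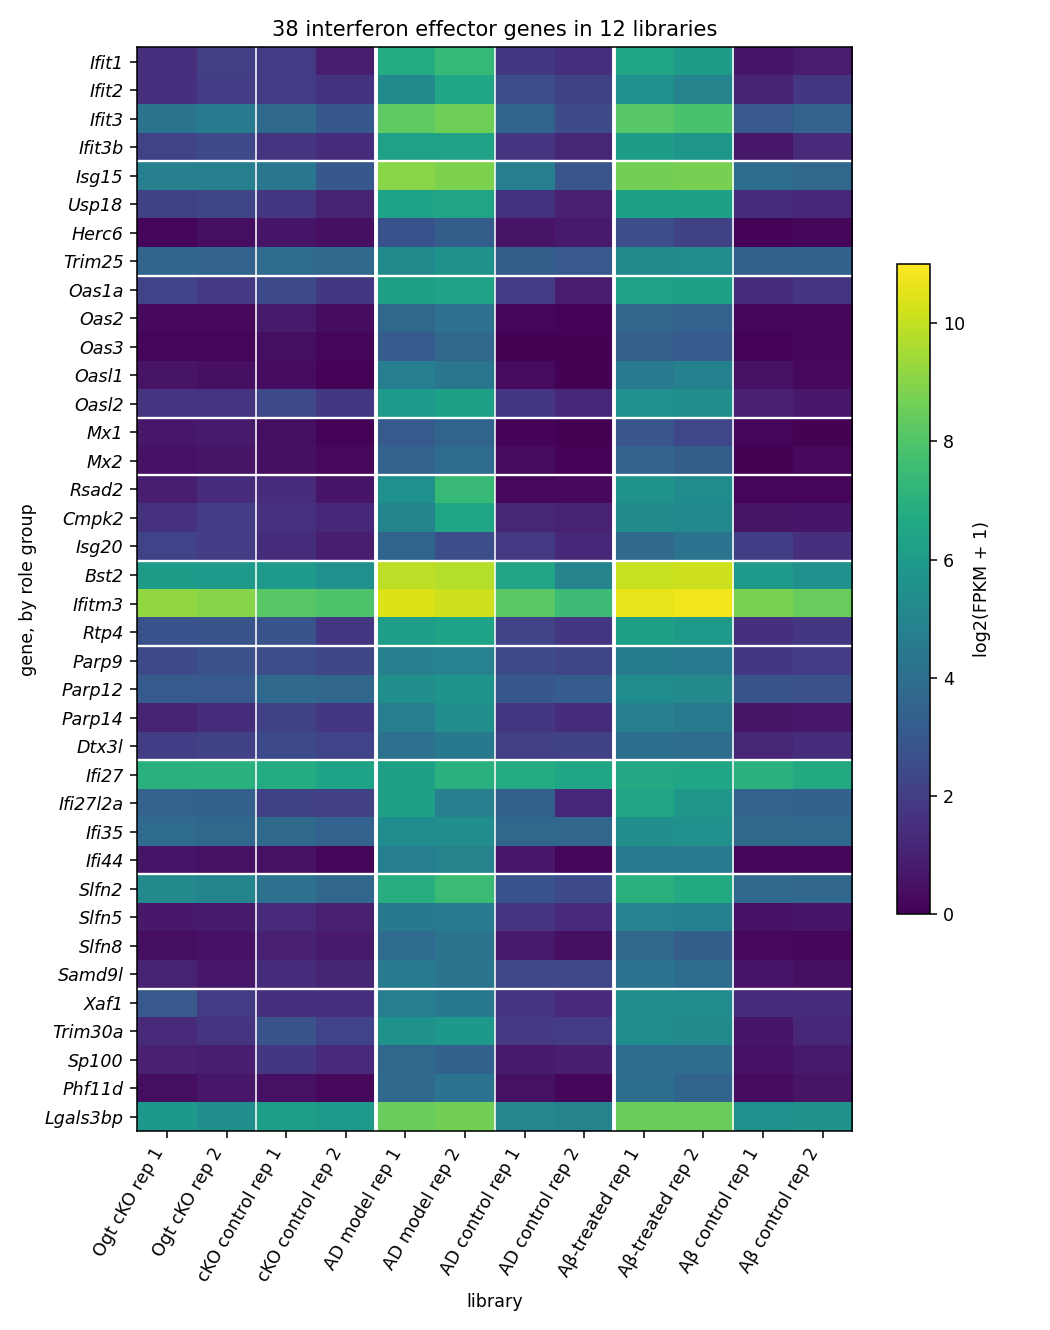
Levels of the 38 genes (rows, grouped by role) in the 12 libraries (columns), as log2(FPKM + 1) from dark (0) to yellow. The AD model and Aβ-treated columns are brighter than their controls in nearly every row, and Ifi27 stays about equally bright in all 12 columns.

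Expression was tested for 14014 genes with limma, and a gene was called at an adjusted p (Benjamini-Hochberg over all genes, two-sided) under 0.05. The spread of each gene was pooled over all 12 libraries. The p-values of the AD comparison thus also draw on the other groups, whose replicates correlated more closely. Fitted on the AD model and AD control libraries alone, 278 of 14014 genes were called in the AD comparison, against 2392 in the main fit. Isg20, Ifitm3 and Ifi27l2a lost their call there. In the AD model 37 of the 38 genes rose and 0 fell, while 9.80% of all tested genes rose and 7.27% fell. At an unadjusted p under 0.05 there were also 37 higher and 0 lower, while 15.1% of all tested genes were higher. The median log2 change of the set was 3.48 (range -0.04 to 6.23), against -0.024 over all tested genes. In the Aβ-treated astrocytes 37 of 38 rose and 0 fell, while 20.8% of all tested genes rose and 15.1% fell. The counts of the set were the same at an unadjusted p under 0.05, where 25.4% of all tested genes were higher with Aβ. The median there was 3.44 (range -0.27 to 5.49), against -0.037 over all tested genes. Ifi27 was the gene not called in both. In the Ogt cKO 6 genes rose and 3 fell, shares of 15.8% and 7.89%, while 22.6% of all tested genes rose and 19.8% fell, so neither share exceeded the background of that comparison. The median log2 change of the set was 0.19, against -0.0024 over all tested genes. All 38 genes passed the filter of at least 1 FPKM in 2 libraries, but 9 (Herc6, Oas2, Oas3, Oasl1, Mx1, Mx2, Ifi44, Slfn8 and Phf11d) passed only through the AD model and Aβ-treated libraries and so had to differ. Of the other 29 genes, 28 rose in each of these comparisons.

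**Figure D3:**
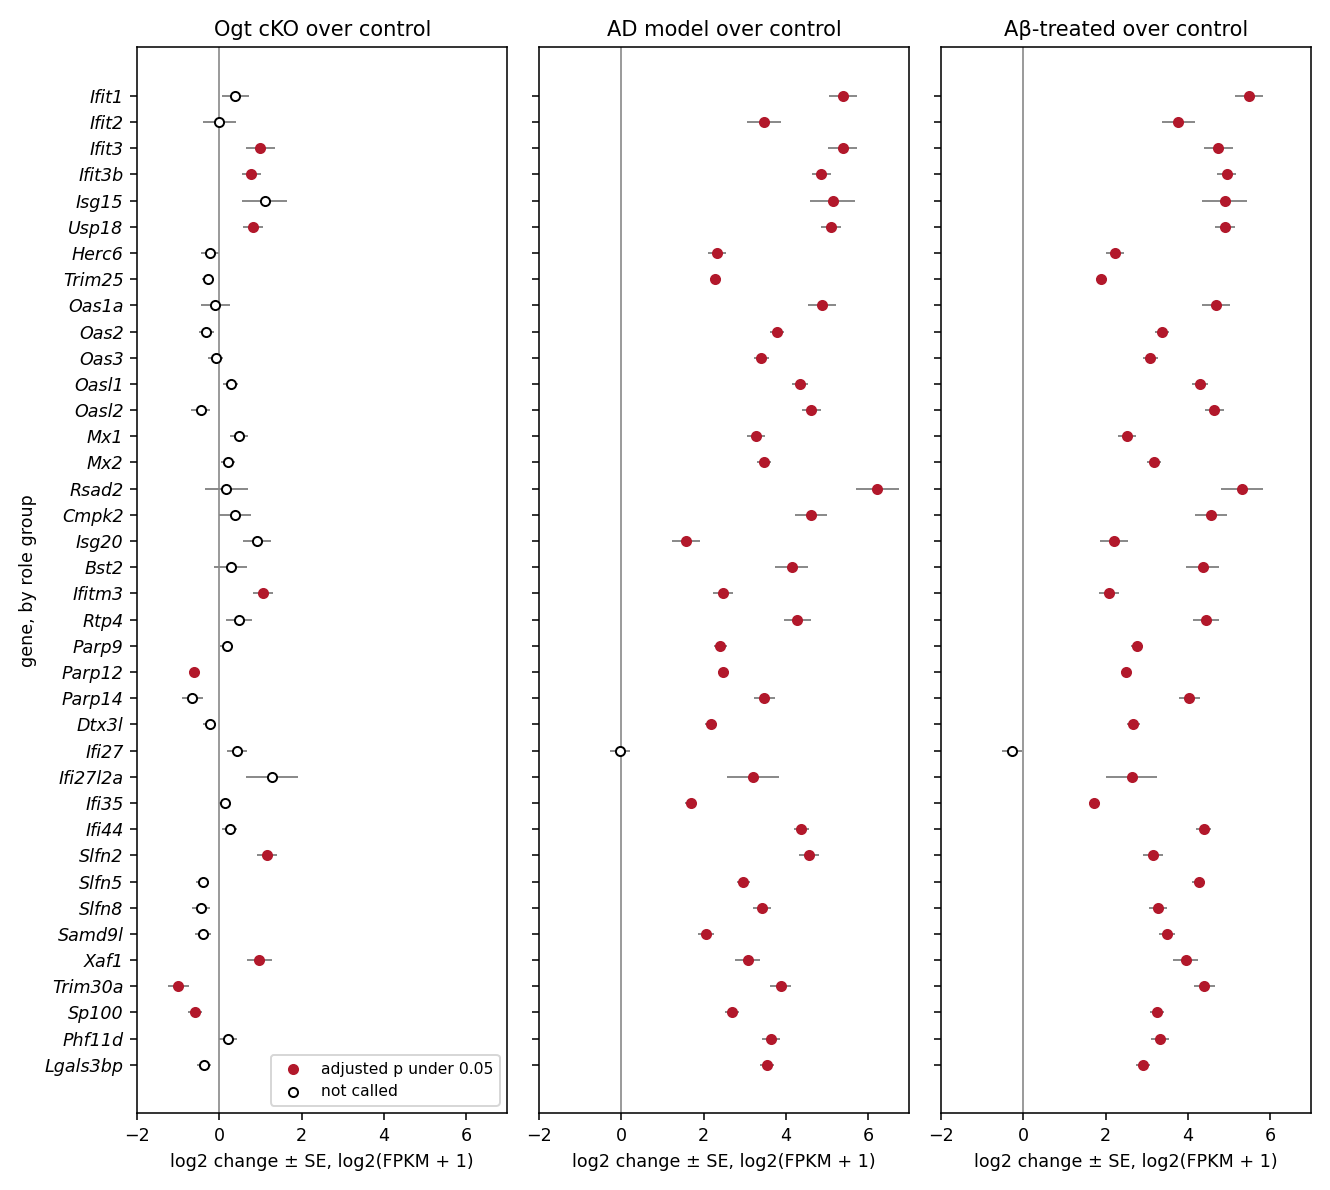
Log2 change ± SE of each of the 38 genes in the 3 comparisons, on log2(FPKM + 1), from a limma fit over 12 libraries, with filled points for an adjusted p under 0.05. In the AD and Aβ panels all points but Ifi27 are filled and lie right of 0, and in the Ogt cKO panel 9 are filled, between -0.998 and 1.16.

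The IFIT proteins bind foreign RNA through repeated helical motifs and keep it from being translated. Ifit2, Ifit3, Ifit3b and Ifit1 lie in this order on chromosome 19 of mm10, all on the plus strand. Ifit1 (ENSMUSG00000034459, chr19:34640871-34650009), which recognises RNA without the methyl mark of host caps, was at 108 and 165 FPKM in the AD model libraries, against 2.48 and 1.92 in the AD control libraries. It was at 86.2 and 65.5 FPKM in the Aβ-treated libraries, against 0.601 and 0.802 in the Aβ control libraries. Ogt cKO astrocytes had 1.87 and 3.22 FPKM, against 2.72 and 0.894 in the cKO control libraries. The AD model and Aβ-treated libraries thus lay far above their controls, and the Ogt cKO libraries overlapped theirs. The mean FPKM ratio was 61.9 for the AD model over its control (log2 change 5.40 ± 0.34, SE, limma adjusted p = 1.82e-05) and 108.1 for Aβ-treated over its control (5.49 ± 0.34, adjusted p = 1.63e-05). Its log2 change for the Ogt cKO was 0.39 ± 0.34 (adjusted p = 0.369).

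All 4 IFIT genes rose in the AD model (log2 changes 3.47 to 5.40) and in the Aβ-treated group (3.77 to 5.49). Of the 4, 2 rose in the Ogt cKO. Ifit3 was at 18.0 and 22.8 FPKM there, against 13.0 and 7.20 in the cKO control (log2 change 0.99 ± 0.35, limma adjusted p = 0.0492). That call of Ifit3 was lost in 16 of 22 alternatives. Among them were pseudocounts of 0.1 and 0.5 (limma adjusted p = 0.0533 and 0.051). Ifit3b was at 3.75 and 4.39 FPKM in the Ogt cKO, against 2.23 and 1.70 in the cKO control (0.78 ± 0.23, adjusted p = 0.0262). It was at 76.5 and 80.4 FPKM in the AD model, against 2.24 and 1.30 in the AD control. In the Aβ-treated libraries it was at 66.3 and 56.3 FPKM, against 0.621 and 1.497 in the Aβ control. The transcripts of Ifit3 and Ifit3b are 97.8% identical over 1700 bases, and how reads that match both were counted is not given in the sources used here, so the split between these genes is uncertain.

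ISG15 is a ubiquitin-like protein that is joined to other proteins during an interferon response, and this set includes its conjugating and removing enzymes. Isg15 (ENSMUSG00000035692, chr4:156199424-156200818) was at 530 and 455 FPKM in the AD model libraries, against 25.3 and 6.40 in the AD control libraries. It was at 404 and 426 FPKM in the Aβ-treated libraries, against 13.9 and 11.96 in the Aβ control libraries. Its level in the Ogt cKO libraries was 26.6 and 25.9 FPKM, against 18.8 and 7.12 in the cKO control libraries. The control libraries of the AD and cKO experiments differed more between replicates than the model libraries did. The ratio of mean FPKM was 31.1 in the AD comparison (log2 change 5.14 ± 0.54, limma adjusted p = 0.000404) and 32.1 in the Aβ comparison (4.90 ± 0.54, adjusted p = 0.000292). Both Ogt cKO libraries lay above both controls, with a log2 change of 1.10 ± 0.54 that was not called (adjusted p = 0.128).

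Usp18 encodes the protease that takes ISG15 off proteins and also damps the interferon receptor. It was at 81.4 and 84.99 FPKM in the AD model, against 2.06 and 1.00 in the AD control. In the Aβ-treated libraries it was at 76.0 and 73.6 FPKM, against 1.63 and 1.40 in the Aβ control. The gene thus rose with Isg15 in both (log2 changes 5.09 and 4.91). Its level was 3.46 and 3.87 FPKM in the Ogt cKO, against 2.36 and 1.08 in the cKO control (log2 change 0.82 ± 0.24, limma adjusted p = 0.0261). Herc6, a ligase for ISG15 in the mouse, and Trim25, a ubiquitin ligase that activates the RNA sensor RIG-I, rose in both amyloid experiments, with log2 changes of 2.32 and 2.28 in the AD model and of 2.22 and 1.90 with Aβ. Neither passed the test in the Ogt cKO. Herc6 passed the filter only through the AD model and Aβ-treated libraries, so its calls there are given as a description.

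The OAS enzymes sense double-stranded RNA and make short adenylate chains that switch on RNase L. Oas1a (ENSMUSG00000052776, chr5:120896256-120907521) was at 74.1 and 80.2 FPKM in the AD model libraries, against 2.89 and 0.810 in the AD control libraries. It was at 77.4 and 72.9 FPKM in the Aβ-treated libraries, against 1.69 and 2.26 in the Aβ control libraries. The Ogt cKO libraries had 3.61 and 2.61 FPKM, against 4.59 and 2.42 in the cKO control libraries, and these groups overlapped. The log2 change was 4.88 ± 0.34 in the AD model (limma adjusted p = 3.7e-05), 4.68 ± 0.34 with Aβ (adjusted p = 3.54e-05) and -0.10 ± 0.34 in the Ogt cKO (adjusted p = 0.833). All 5 OAS genes rose in both amyloid experiments (log2 changes 3.40 to 4.88 in the AD model and 3.09 to 4.68 with Aβ), and 0 of 5 passed the test in the Ogt cKO. They include Oasl1, which in the mouse holds back translation of Irf7. Oas2, Oas3 and Oasl1 passed the filter only through the AD model and Aβ-treated libraries, so their calls there are given as a description. Oas3 was at 8.18 and 12.1 FPKM in the AD model, against 0.0343 and 0.0360 in the AD control, and at 8.91 and 7.92 FPKM in the Aβ-treated libraries, against 0.0669 and 0.139 in the Aβ control. Oasl2 was at 60.9 and 75.6 FPKM in the AD model, against 2.33 and 1.35 in the AD control. For both genes the groups lay far apart. The Oas1a transcript is 97.6% identical to that of Oas1g over 1861 bases, so their split is uncertain. Oas1g, no member of the set, stood at 20.3 and 17.9 FPKM in the AD model, against 0.259 and 0.0435 in the AD control.

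The Mx proteins are dynamin-like GTPases that trap viral particles, and many laboratory strains carry defective copies of them. Mx2 (ENSMUSG00000023341, chr16:97535308-97560900) was at 10.3 and 13.4 FPKM in the AD model libraries, against 0.235 and 0.0845 in the AD control libraries. It was at 10.2 and 8.37 FPKM in the Aβ-treated libraries, against 0.0491 and 0.207 in the Aβ control libraries. The Ogt cKO libraries had 0.440 and 0.483 FPKM, against 0.352 and 0.174 in the cKO control libraries. The model and treated libraries again lay apart from all others. Its log2 change was 3.46 ± 0.17 in the AD model (limma adjusted p = 5.99e-06), 3.19 ± 0.17 with Aβ (8.01e-06) and 0.21 ± 0.17 in the Ogt cKO (0.334). Mx1 had log2 changes of 3.27 in the AD model and 2.53 with Aβ, and was listed at 0 in AD control replicate 2. Both Mx genes passed the filter only through the AD model and Aβ-treated libraries, so their calls there are given as a description. Mx1 and Mx2 share 94.8% of 920 aligned bases, which leaves their split uncertain in that stretch.

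Rsad2 (viperin) makes a nucleotide that ends viral RNA chains, and Cmpk2 is a mitochondrial kinase that can supply its substrate. Their starts lie 12752 bases apart on opposite strands of chromosome 12, with no other protein-coding gene between them. Rsad2 (ENSMUSG00000020641, chr12:26442746-26456452) was at 44.7 and 174 FPKM in the AD model libraries, against 0.168 and 0.223 in the AD control libraries. It was at 50.1 and 39.2 FPKM in the Aβ-treated libraries, against 0.109 and 0.159 in the Aβ control libraries. Its level in the Ogt cKO libraries was 0.924 and 1.60 FPKM, against 1.60 and 0.526 in the cKO control libraries. Both amyloid groups lay above their controls without overlap, and AD model replicate 2 stood 3.90 times above replicate 1. The log2 change was 6.23 ± 0.52 in the AD model (limma adjusted p = 0.000108), the largest of the 38 genes there, 5.32 ± 0.52 with Aβ (0.000151) and 0.17 ± 0.52 in the Ogt cKO (0.816). Cmpk2 was at 30.2 and 86.8 FPKM in the AD model, against 1.24 and 1.05 in the AD control, so its replicates differed in the same direction as those of Rsad2. Isg20, an exonuclease of single-stranded RNA, had the smallest called change of the set in the AD model (1.58 ± 0.34, adjusted p = 0.0134). That call was lost without AD model replicate 1 (1.13, adjusted p = 0.0613) and without AD control replicate 2 (1.26, adjusted p = 0.069).

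**Figure D4:**
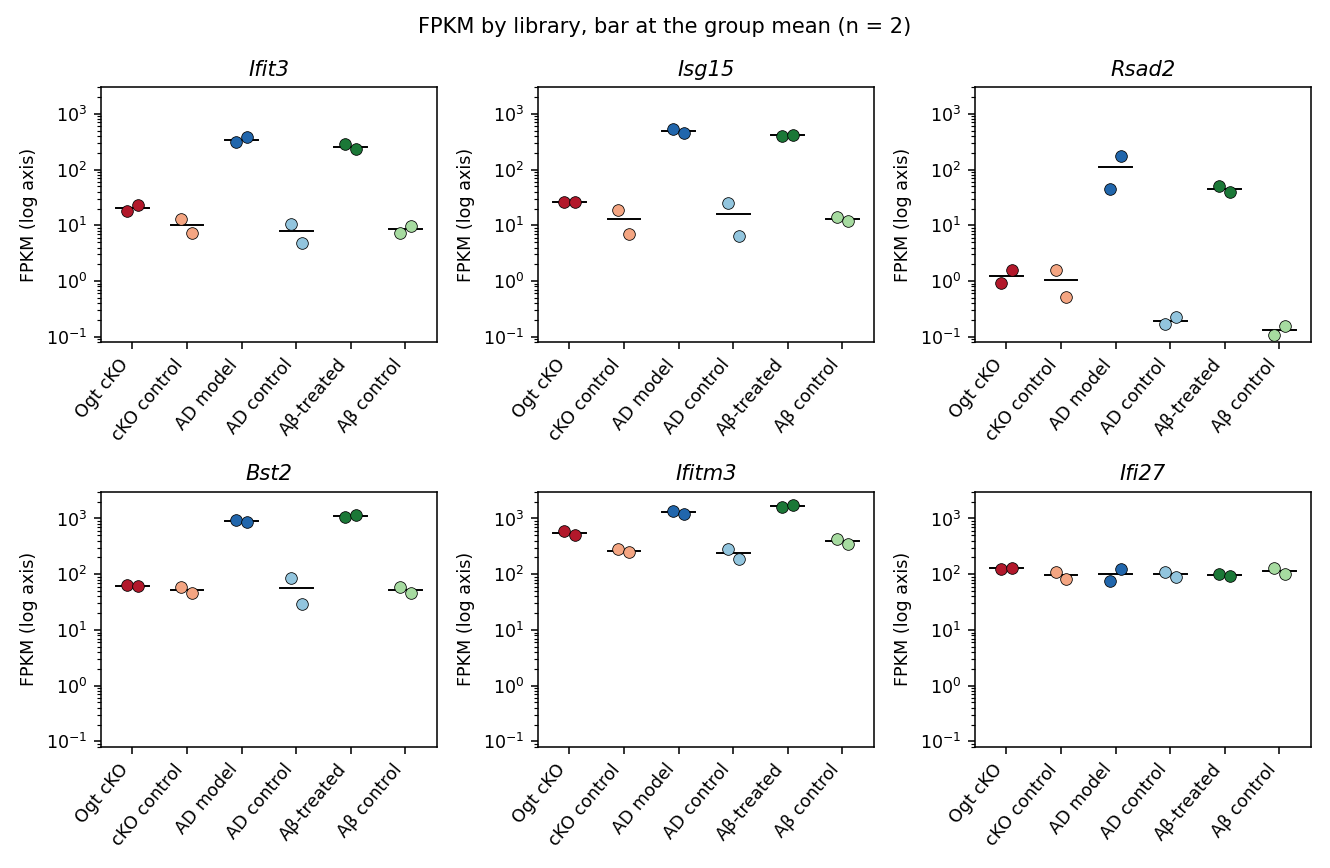
FPKM of 6 genes by library on a log axis, with points for the 2 libraries of each group (replicate 1 left, replicate 2 right) and a bar at their mean. Ifit3, Isg15, Rsad2, Bst2 and Ifitm3 lie above their controls in the AD model and Aβ-treated groups, while Ifi27 spans 75.4 to 130 FPKM over all 12 libraries.

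Ifitm3, Bst2 and Rtp4 act at membranes. Ifitm3 (ENSMUSG00000025492, chr7:141009586-141010770), which stops virus fusion in endosomes, was at 1389 and 1195 FPKM in the AD model libraries, against 289 and 184 in the AD control libraries. It was at 1582 and 1727 FPKM in the Aβ-treated libraries, against 436 and 345 in the Aβ control libraries. Ogt cKO astrocytes had 597 and 510 FPKM, against 279 and 248 in the cKO control libraries. The gene had the highest level of the set in all 12 libraries and made up 23.6% to 58.7% of their summed FPKM, so sums over the set follow it. Its ratio of mean FPKM was 5.47 in the AD comparison (log2 change 2.48 ± 0.24, limma adjusted p = 0.000233). The ratio was 4.24 in the Aβ comparison (2.09 ± 0.24, adjusted p = 0.00033) and 2.10 in the cKO comparison (1.06 ± 0.24, adjusted p = 0.00914). With the AD libraries alone Ifitm3 was not called in the AD comparison (limma adjusted p = 0.0698).

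Rtp4, a chaperone of membrane receptors, was at 71.1 and 83.0 FPKM in the AD model libraries, against 3.72 and 2.39 in the AD control libraries. It was at 73.1 and 59.1 FPKM in the Aβ-treated libraries, against 1.78 and 2.38 in the Aβ control libraries. The Ogt cKO libraries had 5.85 and 6.14 FPKM, against 6.35 and 2.43 in the cKO control libraries, with overlap. Bst2 (tetherin), which holds budding virus at the cell surface, was at 949 and 869 FPKM in the AD model, against 86.0 and 29.3 in the AD control. It was at 1063 and 1138 FPKM in the Aβ-treated libraries, against 60.1 and 45.6 in the Aβ control. Both genes thus stood many times above their controls in the amyloid groups. Rtp4 and Bst2 had log2 changes of 4.28 and 4.15 in the AD model and of 4.45 and 4.37 with Aβ, and neither passed the test in the Ogt cKO (adjusted p = 0.248 and 0.598).

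Parp9, Parp12 and Parp14 belong to the family that adds ADP-ribose to proteins, and Dtx3l is a ubiquitin ligase that pairs with Parp9. Parp14 (ENSMUSG00000034422, chr16:35832874-35871544) was at 24.9 and 42.4 FPKM in the AD model libraries, against 2.34 and 1.70 in the AD control libraries. It was at 26.9 and 22.6 FPKM in the Aβ-treated libraries, against 0.489 and 0.643 in the Aβ control libraries. Its level in the Ogt cKO libraries was 1.11 and 1.72 FPKM, against 3.31 and 2.31 in the cKO control libraries. The groups did not overlap in any experiment, with the Ogt cKO libraries below their controls. The log2 change was 3.48 ± 0.26 in the AD model (limma adjusted p = 4.89e-05), 4.04 ± 0.26 with Aβ (1.98e-05) and -0.66 ± 0.26 in the Ogt cKO, not called (0.0671). Parp12 fell in the Ogt cKO, with 7.56 and 7.29 FPKM against 12.4 and 11.4 in the cKO control (-0.62 ± 0.13, adjusted p = 0.00698). All 4 genes rose in both amyloid experiments, by 2.18 to 3.48 in the AD model and 2.50 to 4.04 with Aβ on the log2 scale. Dtx3l and Parp9 overlap by 682 bases on opposite strands, and whether the counting used strand is not given in the sources used here, so reads of that stretch cannot be assigned.

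Ifi27 was the exception of the set. The gene (ENSMUSG00000064215, chr12:103434211-103440239) encodes a small hydrophobic protein of mitochondrial and nuclear membranes. It was at 75.4 and 124 FPKM in the AD model libraries, against 109 and 90.6 in the AD control libraries. It was at 99.0 and 91.0 FPKM in the Aβ-treated libraries, against 128 and 103 in the Aβ control libraries. The Ogt cKO libraries had 126 and 130 FPKM, against 109 and 81.6 in the cKO control libraries. The AD groups overlapped, the Aβ-treated libraries lay below both Aβ control libraries, and Ifi27 was second only to Ifitm3 in all 6 control libraries. The log2 change was -0.04 ± 0.24 in the AD model (limma adjusted p = 0.947), -0.27 ± 0.24 with Aβ (0.409) and 0.43 ± 0.24 in the Ogt cKO (0.177). Its neighbour Ifi27l2a, 1927 bases away on the opposite strand, rose in the AD model (3.20 ± 0.63, adjusted p = 0.00858) and with Aβ (2.63 ± 0.63, adjusted p = 0.0112). The call in the AD model was lost with no filter on low values (limma adjusted p = 0.0859) and with the AD libraries alone (0.169). The call with Aβ was lost without Aβ-treated replicate 1 (adjusted p = 0.0778), Aβ control replicate 1 (0.0606) or Aβ control replicate 2 (0.0504). Ifi27l2a was at 75.0 and 26.6 FPKM in the AD model libraries, against 9.29 and 1.43 in the AD control libraries.

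Ifi44, a cytoplasmic protein induced by interferon (ENSMUSG00000028037, chr3:151730922-151749960), was at 25.8 and 28.9 FPKM in the AD model libraries, against 0.632 and 0.141 in the AD control libraries. It was at 22.5 and 21.6 FPKM in the Aβ-treated libraries, against 0.106 and 0.103 in the Aβ control libraries. The Ogt cKO libraries had 0.560 and 0.427 FPKM, against 0.398 and 0.127 in the cKO control libraries. Both amyloid groups lay far above all other libraries. Its log2 change was 4.37 ± 0.18 in the AD model (limma adjusted p = 4.4e-06), 4.38 ± 0.18 with Aβ (3.46e-06) and 0.25 ± 0.18 in the Ogt cKO (0.292). Ifi44 passed the filter only through the AD model and Aβ-treated libraries, so its calls there are given as a description. Ifi35, which forms a cytoplasmic complex with Nmi, had the highest control levels among the IFI genes after Ifi27 and rose by 1.69 in the AD model and 1.73 with Aβ.

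The Schlafen genes, linked to growth arrest of immune cells in the mouse, form a cluster on chromosome 11. Slfn2 (ENSMUSG00000072620, chr11:83065112-83070678), needed for quiescence of mouse T cells, was at 113 and 180 FPKM in the AD model libraries, against 5.82 and 4.43 in the AD control libraries. It was at 126 and 103 FPKM in the Aβ-treated libraries, against 12.6 and 11.3 in the Aβ control libraries. Its level in the Ogt cKO libraries was 34.8 and 30.05 FPKM, against 16.8 and 11.5 in the cKO control libraries. All 3 contrasts were without overlap and upward. The log2 change was 4.56 ± 0.25 in the AD model (limma adjusted p = 9.39e-06), 3.15 ± 0.25 with Aβ (5.14e-05) and 1.16 ± 0.25 in the Ogt cKO (0.00814). Slfn5, Slfn8 and Samd9l, the last an inhibitor of protein synthesis and growth, rose in both amyloid experiments, by 2.06 to 3.42 in the AD model and by 3.28 to 4.27 with Aβ. For Slfn8, which passed the filter only through the AD model and Aβ-treated libraries, these calls are a description. The Slfn8 transcript is 92.02% identical to that of Slfn9 over 3857 bases, and 379 bases of Slfn2 match Slfn3 at 95.2%, so their values are uncertain to that extent.

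The remaining genes encode nuclear, TRIM and secreted proteins. Trim30a (ENSMUSG00000030921, chr7:104409025-104465193), a ligase that restrains NF-kappaB signalling in the mouse, was at 49.1 and 57.0 FPKM in the AD model libraries, against 2.59 and 2.79 in the AD control libraries. It was at 41.4 and 37.5 FPKM in the Aβ-treated libraries, against 0.561 and 1.34 in the Aβ control libraries. Ogt cKO astrocytes had 1.49 and 2.24 FPKM, against 6.03 and 3.57 in the cKO control libraries. The gene thus lay above its control in both amyloid groups and below it in the Ogt cKO. The log2 change was 3.87 ± 0.25 in the AD model (limma adjusted p = 2.17e-05), 4.40 ± 0.25 with Aβ (1.04e-05) and -0.998 ± 0.25 in the Ogt cKO (0.014). Trim30a shares 90.1% of 1719 aligned bases with Trim30d, so part of its reads may be split between them.

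Sp100, a scaffold of nuclear bodies, fell in the Ogt cKO, with 0.993 and 0.908 FPKM against 2.36 and 1.56 in the cKO control (log2 change -0.59 ± 0.17, limma adjusted p = 0.0228). Xaf1, which counters an inhibitor of apoptosis, rose there (0.97 ± 0.30, adjusted p = 0.0317), with 7.33 and 2.77 FPKM against 1.90 and 1.83 in the cKO control. The 2 Ogt cKO libraries stood apart for Xaf1, and without Ogt cKO replicate 1 its log2 change was 0.39 (adjusted p = 0.152). All 5 genes of this group, with the PHD finger gene Phf11d and the secreted galectin binder Lgals3bp, rose in both amyloid experiments (2.69 to 3.87 in the AD model, 2.91 to 4.40 with Aβ). For Phf11d, which passed the filter only through the AD model and Aβ-treated libraries, these calls are a description.

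The calls in the Ogt cKO rested on single libraries and settings. Parp12 kept its call in every alternative tried, and each of the other 8 lost it without at least 1 of the 4 libraries. The count of 9 called genes was 1 without Ogt cKO replicate 1, 5 without Ogt cKO replicate 2, 6 without cKO control replicate 1 and 3 without cKO control replicate 2. It was 1 with no filter on low values and 14 (8 higher and 6 lower) with the 4 libraries of the comparison alone. The split into 6 higher and 3 lower became 3 higher and 8 lower with levels rescaled to the total of reads, a scaling that set the median of all genes at -0.19, and 4 higher and 4 lower with quantile normalization. In the cKO control group replicate 1 was higher than replicate 2 for all 38 genes, with a median ratio of replicate 2 over replicate 1 of 0.665. No such one-sided split was seen in the Ogt cKO group, where replicate 2 was higher for 20 genes and replicate 1 for 18. The counts of 37 in the amyloid experiments were 36 or 37 without any 1 library. Counts over the pathway lists in the Ogt cKO also moved, with 0 to 2 genes higher and 0 to 2 lower per list of receptors, sensors and GTPases without single libraries of that comparison.

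Replicates of the amyloid groups also differed. In the AD model replicate 2 was higher for 29 of the 38 genes, with ratios of replicate 2 over replicate 1 from 0.354 (Ifi27l2a) to 3.90 (Rsad2), and 5 genes differed by more than 2-fold. In the AD control replicate 1 was higher for 30 genes, and 10 differed by more than 2-fold. In the Aβ-treated group replicate 1 was higher for 30 genes, and 0 differed by more than 2-fold.

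The difference between experiments was tested as the log2 change of one minus that of the other, each against its own control. The AD effect exceeded the cKO effect in 35 of the 38 genes, while 25.6% of all tested genes differed in either direction. The 3 largest differences were in Rsad2 (6.06 ± 0.74), Oasl2 (5.08 ± 0.33) and Ifit1 (5.01 ± 0.48), with limma adjusted p of 0.00112, 8.12e-05 and 0.000372. Isg20, Ifi27 and Ifi27l2a did not pass (adjusted p = 0.328, 0.331 and 0.136). The Aβ effect exceeded the cKO effect in 36 genes, all but Ifi27 and Ifi27l2a, while 52.3% of all tested genes differed in either direction. Trim30a (5.40 ± 0.35), Rsad2 (5.16 ± 0.74) and Ifit1 (5.10 ± 0.48) had the largest of these differences, with limma adjusted p of 4.63e-05, 0.000858 and 0.00015. The counts of 35 and 36 include the 9 genes that passed the filter only through the AD model and Aβ-treated libraries.

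The AD and Aβ effects, which have separate control libraries, differed in 2 of the 38 genes (5.26%), while 6.14% of all tested genes differed in either direction, so the share lay near the background. Both were smaller in the AD model. Samd9l was at 22.9 and 18.1 FPKM in the AD model libraries, against 4.02 and 4.22 in the AD control libraries. It was at 17.2 and 13.7 FPKM in the Aβ-treated libraries, against 0.556 and 0.350 in the Aβ control libraries, so the controls differed more than the amyloid groups did (difference of log2 changes -1.44 ± 0.27, limma adjusted p = 0.0192). Slfn5 was at 20.8 and 22.1 FPKM in the AD model, against 2.22 and 1.59 in the AD control. It was at 28.2 and 27.6 FPKM in the Aβ-treated libraries, against 0.467 and 0.537 in the Aβ control (-1.31 ± 0.22, adjusted p = 0.0153). The count of 2 was 0 without Aβ-treated replicate 1 or Aβ control replicate 1, 1 without Aβ-treated replicate 2 and 4 without AD model replicate 1. It was 0 with no filter and 0 with the libraries of these 2 experiments alone. At an unadjusted p under 0.05, 3 genes had the larger change in the AD model and 4 with Aβ. Of all tested genes 8.84% had the higher log2 change in the AD model at that unadjusted level, and the share for the other direction was not counted. Among the 3 genes was Slfn2, with a difference of 1.41 ± 0.35 that just missed the adjusted threshold (limma adjusted p = 0.0524). Genes that missed it are not shown to respond alike.

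**Figure D5:**
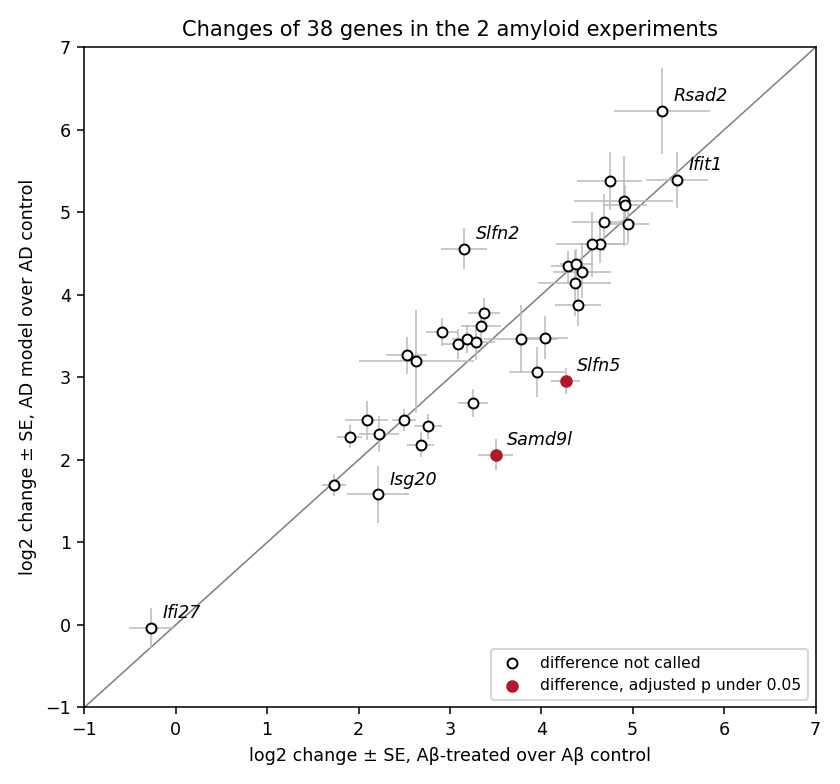
Log2 change ± SE of the 38 genes in the AD comparison (vertical) against the Aβ comparison (horizontal), both on log2(FPKM + 1), with the line of equal change. Most points lie near the line between 1.58 and 6.23, Ifi27 lies near 0 on both axes, and Samd9l and Slfn5 (filled) are the 2 genes whose difference was called.

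Upstream of the set, interferon transcripts themselves were at or near 0 reads, where a count of 0 allows up to 3. Of 20 interferon genes 1 passed the filter, Ifnb1 (interferon beta), through AD model replicate 2 and Aβ-treated replicate 1. It had 9 and 15 reads in the AD model libraries, against 0 and 0 in the AD control libraries. It had 13 and 2 reads in the Aβ-treated libraries, against 0 and 0 in the Aβ control libraries. The Ogt cKO libraries had 0 and 3 reads, against 0 and 0 in the cKO control libraries. It thus entered the test only through the groups where it was high, so its call is given as a description. Ifnb1 was called higher in the AD model (log2 change 0.91 ± 0.25, limma adjusted p = 0.0395) and not with Aβ (0.61 ± 0.25, adjusted p = 0.0909), and the difference between these changes was 0.30 ± 0.36 (adjusted p = 0.656). The call in the AD model was lost without AD model replicate 2 (0.75, adjusted p = 0.137), AD control replicate 1 (0.0968) or AD control replicate 2 (0.0994). With Aβ the gene was called without Aβ-treated replicate 2 (1.02, adjusted p = 0.0128). Ifna5 had 6 reads, all in AD model replicate 2, and Ifna4 had 1 read in each of Ogt cKO replicate 1 and AD model replicate 2. Ifng, the type II interferon, and the lambda interferons Ifnl2 and Ifnl3 were listed at 0 in every library.

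The receptors and their kinases differed less. Of 7 such genes 1 rose and 0 fell in the AD model, 3 rose and 0 fell with Aβ, and 1 rose and 1 fell in the Ogt cKO. The shares of all tested genes that rose and fell were 9.80% and 7.27% in the AD model. They were 20.8% and 15.1% with Aβ, and 22.6% and 19.8% in the Ogt cKO. Jak1, a kinase of the receptor, was at 30.4 and 40.4 FPKM in the AD model, against 27.7 and 33.3 in the AD control. It was at 33.9 and 35.2 FPKM in the Aβ-treated libraries, against 20.7 and 28.8 in the Aβ control, and was not called in any comparison (adjusted p = 0.532 for AD, 0.0673 for Aβ and 0.42 for cKO). With Aβ it was called without Aβ control replicate 2 (0.72, adjusted p = 0.0278), without either AD model library (0.041 and 0.0412) and with the replicate number as a block (0.0268). In the Ogt cKO the interferon gamma receptor gene Ifngr2 rose (log2 change 0.59 ± 0.19, limma adjusted p = 0.0328), and Ifngr1 fell (-0.48 ± 0.15, adjusted p = 0.035), calls that were lost without any 1 of the 4 libraries. The only gene of this list whose AD and Aβ effects differed was Jak2 (difference -1.29 ± 0.29, adjusted p = 0.0376). Without AD model replicate 2, AD control replicate 1 or AD control replicate 2 the count of 1 in the AD model became 0, and without AD model replicate 1 it became 3. The count of 3 with Aβ became 6 without either AD model library.

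Among the transcription factors of the pathway, Irf7 and Stat2 rose in both amyloid experiments and Irf3 was not called. Irf7, the factor that amplifies interferon production, was at 112 and 143 FPKM in the AD model libraries, against 1.89 and 0.795 in the AD control libraries. It was at 114 and 114 FPKM in the Aβ-treated libraries, against 1.68 and 1.78 in the Aβ control libraries. Ogt cKO astrocytes had 2.73 and 2.59 FPKM, against 3.18 and 1.16 in the cKO control. The log2 change of Irf7 was 5.81 ± 0.31 in the AD model (limma adjusted p = 8.28e-06), 5.40 ± 0.31 with Aβ (1.04e-05) and 0.29 ± 0.31 in the Ogt cKO (0.467). Stat2 rose in the AD model (2.91 ± 0.22, limma adjusted p = 4.89e-05) and with Aβ (2.80 ± 0.22, adjusted p = 4.43e-05), and fell in the Ogt cKO (-0.75 ± 0.22, adjusted p = 0.0235). That fall was not called without either Ogt cKO library or without cKO control replicate 1 (adjusted p = 0.0916 to 0.148). Irf3, which is present in resting cells and activated by phosphorylation, was not called in any comparison, with log2 changes of -0.08 for AD, -0.30 for Aβ and -0.13 for cKO.

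Of 17 nucleic acid sensors and adaptors 15 rose and 0 fell in the AD model, with as few as 8 higher under an alternative. With Aβ 13 rose and 0 fell, and in the Ogt cKO 3 rose and 5 fell. Among all tested genes 9.80% rose in the AD model and 20.8% with Aβ, and 22.6% rose and 19.8% fell in the Ogt cKO. Tlr9 needed the AD model and Aβ-treated libraries to pass the filter, so its result there is a description. Ddx58, the RNA sensor RIG-I, was at 38.1 and 45.3 FPKM in the AD model, against 7.13 and 6.93 in the AD control. Mavs, the mitochondrial adaptor of RIG-I, was at 9.39 and 14.9 FPKM in the AD model, against 12.8 and 13.8 in the AD control, and was not called in any comparison, but was called lower in the AD model without AD model replicate 2 (log2 change -0.46, limma adjusted p = 0.0421) and lower with Aβ without either AD model library (0.0337 and 0.0341). The sensor rose while this adaptor's groups overlapped. Zbp1, a sensor of left-handed nucleic acid, was at 47.0 and 35.96 FPKM in the AD model, against 0.635 and 0.808 in the AD control. Zbp1 also rose in the Ogt cKO, with 3.03 and 2.92 FPKM against 1.70 and 0.728 in the cKO control (0.88 ± 0.21, limma adjusted p = 0.0128), a call lost without either Ogt cKO library or cKO control replicate 2 (adjusted p = 0.0574 to 0.0909). Eif2ak2, the RNA-activated kinase PKR, was the sensor whose AD effect was smaller than its Aβ effect (difference -1.08 ± 0.19, adjusted p = 0.0153).

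All 14 interferon-inducible GTPases rose in both amyloid experiments, and 1 rose and 2 fell in the Ogt cKO. The count in the AD model was as low as 8 under an alternative, and the count with Aβ was also lower under some. Of all tested genes 9.80% rose in the AD model and 20.8% with Aβ, and in the Ogt cKO 22.6% rose and 19.8% fell. Gbp4, Gbp5, Gbp6, Gbp7, Gbp8, Gbp9 and Tgtp1 needed the AD model and Aβ-treated libraries to pass the filter. Their calls in these groups are therefore given as a description. Gbp2, a guanylate-binding protein that attacks pathogen vacuoles, was at 56.8 and 135 FPKM in the AD model, against 7.32 and 11.6 in the AD control. It was at 50.4 and 48.4 FPKM in the Aβ-treated libraries, against 4.75 and 4.78 in the Aβ control. Igtp and Irgm1, immunity-related GTPases, had log2 changes of 3.66 and 2.01 in the AD model and of 3.84 and 1.48 with Aβ. With the AD libraries alone, Gbp2 (limma adjusted p = 0.0662) and Irgm1 (0.0661) were not called in the AD model. Irgm1 also rose in the Ogt cKO (0.76 ± 0.26, limma adjusted p = 0.0432), a call lost without either Ogt cKO library or cKO control replicate 2 (adjusted p = 0.138 to 0.255).

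Negative regulators of the pathway numbered 6, of which 2 rose in the AD model, 4 with Aβ and 1 in the Ogt cKO, where 1 fell. As background for these and the relatives below, 9.80% of all tested genes rose and 7.27% fell in the AD model. The shares were 20.8% and 15.1% with Aβ, and 22.6% and 19.8% in the Ogt cKO. Socs3, an inhibitor of JAK kinases, rose with Aβ (log2 change 1.29 ± 0.42, limma adjusted p = 0.04) and was not called in the AD model (0.95 ± 0.42, adjusted p = 0.169), and the difference between these changes was -0.34 ± 0.59 (adjusted p = 0.77). With Aβ the call of Socs3 was lost without any 1 of the 4 libraries (adjusted p = 0.0951 to 0.167), and in the AD model the gene was called without AD control replicate 2 (1.58, adjusted p = 0.0285) and with the replicate number as a block (adjusted p = 0.0158). Ptpn6, a phosphatase common in blood cells and microglia, rose in both (1.88 and 1.502). Its call in the AD model was lost with no filter on low values (limma adjusted p = 0.0937) and with the AD libraries alone (0.137). The call with Aβ was lost with no filter (adjusted p = 0.112). It was also lost without Aβ-treated replicate 1 (log2 change 1.16) or Aβ control replicate 1 (1.24). Trim27, a ubiquitin ligase, rose in the Ogt cKO, with 18.2 and 16.7 FPKM against 9.93 and 9.26 in the cKO control (0.80 ± 0.15, limma adjusted p = 0.00499), and was not called in the AD model or with Aβ. The count of 4 with Aβ was 0 without either of these libraries and 1 without Aβ-treated replicate 2, and the count of 2 in the AD model was 1 without AD control replicate 1. Of 24 tested relatives of the 38 genes, 18 rose and 0 fell in the AD model, with as few as 8 higher under an alternative. With Aβ 19 rose and 2 fell, and in the Ogt cKO 4 rose and 2 fell. The last counts were 2 and 0 without Ogt cKO replicate 1 or cKO control replicate 1, and 3 and 0 without Ogt cKO replicate 2. Ifit1bl1, Oas1c, Oas1g, Ifitm6, Slfn1, Slfn3, Slfn4, Slfn9, Trim30c, Phf11a and Sp110 among these relatives needed the AD model and Aβ-treated libraries to pass the filter. Any calls of theirs in these groups are a description. Zc3hav1, an antiviral PARP relative that binds RNA, rose in the AD model (1.89) and with Aβ (2.01). Ifitm2, a neighbour of Ifitm3 in family and function, was at 141 and 128 FPKM in the AD model, against 113 and 115 in the AD control, and was not called in any comparison. Parp3, a DNA repair enzyme, fell with Aβ (-0.71 ± 0.16, limma adjusted p = 0.00894, and 0.0562 without Aβ-treated replicate 1) and rose in the Ogt cKO (0.93 ± 0.16, adjusted p = 0.00392).

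Markers of other cell types moved in the same comparisons, where 9.80% of all tested genes rose and 7.27% fell in the AD model. With Aβ these shares were 20.8% and 15.1%, and in the Ogt cKO 22.6% and 19.8%. They are the background for the counts of every cell type that follows. Of 15 microglia and macrophage markers 10 rose and 0 fell in the AD model, with as few as 1 higher under an alternative. Their summed level in the AD model was 3380 to 5673 FPKM, against 1143 to 1666 FPKM in the AD control. With Aβ 5 rose and 2 fell, and the sum was 4634 to 6146 FPKM, against 2313 to 3839 FPKM in the Aβ control. For the Ogt cKO 0 rose and 7 fell, and the sum was 3059 to 4069 FPKM, against 7291 to 9234 FPKM in the cKO control. Lyz2, C1qa, C1qb and C1qc carried most of this sum in every library, and other markers did not all follow it. Itgam, an integrin subunit of microglia, was at 14.7 and 9.91 FPKM in the AD model, against 2.06 and 1.82 in the AD control, and at 6.64 and 5.17 FPKM in the Ogt cKO, against 5.10 and 3.46 in the cKO control. Cx3cr1 was lower in both amyloid groups, at 1.23 and 0.0854 FPKM in the AD model, against 8.64 and 1.38 in the AD control. The gene was not called in the AD model. In the Aβ-treated libraries it was at 0.996 and 0.286 FPKM, against 4.37 and 8.68 in the Aβ control. Tmem119 overlapped its control in the AD model and was lower with Aβ, at 2.55 and 5.055 FPKM against 20.1 and 12.2 in the Aβ control. None of the 15 microglia and macrophage markers was at 0 in both libraries of a group. Without AD model replicate 2, or without AD control replicate 1, 3 of the 15 markers were called higher in the AD model. With Aβ the marker count fell to 2 higher and 0 lower without Aβ-treated replicate 1 or Aβ control replicate 1.

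Of 11 tested astrocyte markers 0 rose and 4 fell in the AD model, and the sum over 12 was 258 to 290 FPKM, against 501 to 684 FPKM in the AD control. With Aβ 2 rose and 1 fell, with 95.7 to 190 FPKM against 135 to 142 FPKM in the Aβ control. For the Ogt cKO 0 rose and 7 fell, with 118 to 132 FPKM against 550 to 636 FPKM in the cKO control. Pericyte and smooth muscle markers, 7 in number, fell in 5 cases in the AD model and 6 with Aβ, and rose in 4 cases in the Ogt cKO. Their sum was 204 to 746 FPKM in the AD model, against 1673 to 3677 in the AD control. With Aβ it was 416 to 481 FPKM, against 3556 to 4047 in the Aβ control. For the Ogt cKO it was 3979 to 4026 FPKM, against 497.5 to 993 in the cKO control. Of 7 endothelial markers 0 rose in the AD model, 5 rose with Aβ and 6 rose in the Ogt cKO. Of 6 oligodendrocyte markers 3 rose and 1 fell in the AD model, 5 rose and 0 fell with Aβ, and 0 rose and 5 fell in the Ogt cKO. Of 6 fibroblast markers 0 rose and 4 fell in the AD model, 1 rose and 3 fell with Aβ, and 0 moved in the Ogt cKO. Their sum was 337.5 to 744 FPKM in the AD model, against 928 to 1870 in the AD control. With Aβ it was 278 to 472 FPKM, against 767 to 985 in the Aβ control. For the Ogt cKO it was 1159 to 1184 FPKM, against 734.5 to 859 in the cKO control. Of 7 markers of T cells, B cells and neutrophils 1 was tested, which rose in all 3 comparisons, and their sum was at most 11.1 FPKM, while 2 of 6 neuron markers were tested. Some of these counts rested on 1 library. With Aβ the astrocyte count was 1 higher and 0 lower without any 1 library of the Ogt cKO or cKO control or without Aβ control replicate 2, and 0 in both directions without Aβ control replicate 1. In the AD model the endothelial count was 4 higher without AD model replicate 2, the pericyte count was 3 lower without AD model replicate 2 or AD control replicate 1, and fibroblast counts were 1 lower without any 1 of 8 libraries. In the AD model the oligodendrocyte count was 1 higher without AD model replicate 2 and 0 without AD control replicate 1. With Aβ the endothelial count was 1 to 3 without any 1 library of the Aβ-treated, Aβ control or Ogt cKO groups, the fibroblast count was 1 lower without Aβ-treated or Aβ control replicate 1, and the oligodendrocyte count was 3 without Aβ-treated replicate 1. In the Ogt cKO the endothelial and pericyte counts were 1 or 2 without either Ogt cKO library or cKO control replicate 2, and 3 oligodendrocyte markers fell without the last. The part of these other cell types in the levels of the 38 genes was not tested.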

How the data were processed

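Total RNA of unsorted astrocyte cultures was extracted with TRIzol and made into Illumina libraries, per the labels' protocols. The authors deposited FPKM for 54532 genes in 12 libraries, with the length of each gene. The genome build is mm10, per the submitters' processing notes. Not given in the sources used here are the aligner, the counter, the annotation and the use of strand. FPKM times gene length gave whole reads for 100% of values within 0.1 of a read, and these reads were used for depth and in a voom alternative.

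Samples were grouped by the labels. A gene was kept when 2 or more libraries reached 1 FPKM, which left 14014. The values log2(FPKM + 1) of all 12 libraries entered a single limma fit (version 3.58.1, R 4.3.3) with group means and a mean-variance trend (6 residual degrees of freedom), and two-sided p-values were adjusted by Benjamini-Hochberg over the whole table at 0.05. Differences between experiments were contrasts of this fit. The script was tested on simulated data. The 38 genes and the lists of pathway genes and cell markers were chosen with earlier results of these data known, so no p is given for a list. Values per library are given, in each role group, for the gene with the largest AD change, for genes called in the Ogt cKO with a log2 change of at least 1, for the 4 largest Aβ changes and for the gene not called in the AD model. The 3 largest called differences per pair of experiments and the 3 most abundant genes of each pathway list are given by levels, log2 changes or both. Other genes with values were chosen after these were seen. One pathway list is given without its counts, and part of it is not reported here. Transcript identities come from BLAST 2.17.0 on GENCODE M21 transcripts, and promoter windows from RefSeq. Figures were drawn with matplotlib 3.10.9 in Python 3.11.15. Alternatives were other pseudocounts, filters, scalings, a replicate block, voom, single comparisons fitted on their own libraries and each library left out in turn, and after seeing the data a crossed block for Aβ.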

Additional observations from a re-analysis of the deposited data

Results flagged for a closer look

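The tests of a difference between experiments marked the following values, with no explanation weighed. The AD effect differed from the cKO effect in 35 of the 38 genes, while 25.6% of all tested genes differed in either direction. The largest differences of log2 changes were in Rsad2 (6.06), Oasl2 (5.08) and Ifit1 (5.01). The Aβ effect differed from the cKO effect in 36 genes, while 52.3% of all tested genes differed. Trim30a (5.40), Rsad2 (5.16) and Ifit1 (5.10) had the largest of these differences. Both counts include the 9 genes that passed the filter only through the AD model and Aβ-treated libraries. The AD effect differed from the Aβ effect in 2 genes (5.26%), near the 6.14% of all tested genes. These were Samd9l (-1.44) and Slfn5 (-1.31), both with the smaller change in the AD model.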

How the results depend on the processing

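Over 22 alternatives the direction of no called gene of the 38 turned. Of 836 tests of a gene under an alternative, 829 kept their side of the threshold in the AD comparison and 7 lost the call (Isg20, Ifitm3 and Ifi27l2a). In the Aβ comparison 870 of 874 kept it and 4 lost it (Ifi27l2a). In the cKO comparison 756 of 836 kept it, 46 lost a call and 34 gained one. The count of genes called in the cKO comparison (9) was 1 with no filter on low values, 14 with the libraries of the comparison alone, and 1 to 13 without 1 library. The count of differences between the AD and Aβ effects (2) was 0 with no filter, 0 with the libraries of both experiments alone, and 0 to 4 without 1 library. The median log2 change of the set in the AD comparison (3.48) was 4.45 with a pseudocount of 0.1, 4.11 with 0.5 and 4.50 with voom on reads, and in the Aβ comparison (3.44) it was 4.88, 4.06 and 5.15 under the same settings. The added value of 1 FPKM shrinks changes of low genes by construction. The labels give a replicate number and no pairing, and the main fit did not use the number. Deviations of same-numbered libraries correlated at 0.551 in the AD experiment, against 0.033 in the cKO and -0.169 in the Aβ experiment. Whether same-numbered AD libraries share a batch was not tested. With a replicate block 10 genes were called in the cKO, 37 in the AD and 37 in the Aβ comparison, and 36, 3 and 37 genes differed between AD and cKO, AD and Aβ, and Aβ and cKO. With the Aβ numbers crossed, chosen after seeing the data, 37 were called. Where a kilobase-long gene is listed at 0, the depth allows it a level of up to 0.145 to 0.191 FPKM, depending on the library.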
